A study of Mus musculus with 8 samples.

Results

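The mitochondrial respiratory chain was followed in murine skeletal myoblasts, the muscle progenitor cells that fuse into fibres. The cells received an siRNA against G9a (siG9a), which is the Ehmt2 gene product and methylates lysine 9 of histone H3, or a scrambled control siRNA. The 4 groups were siG9a at day 1, control at day 1, siG9a at day 0 and control at day 0, with 2 biological replicates and 1 Illumina WG-6 v2.0 array per replicate. Every group received an siRNA. The labels give no cell line, culture medium, siRNA dose or event from which the days were counted. Respiratory chain genes were taken by gene symbol: the Nduf subunit names, Sdha to Sdhd, names starting with Uqcr, the Cox4 to Cox8 subunit names and names starting with Atp5. This gave 118 probes for 79 genes, of 21945 named genes in all, with 35 genes in complex I, 4 in complex II, 8 in complex III, 16 in complex IV and 16 in complex V. Each gene was read by the probe with the largest standard deviation (SD) over the 8 arrays, and 49 of the 79 genes had no other probe. The symbols kept the pseudogene record Ndufs5-ps and Ndufa4 in complex I, although Ndufa4 is now regarded as a subunit of complex IV. Cox8a and Ndufa4l2, the usual counterparts of Cox8b and Ndufa4, were not analysed here.

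The respiratory chain sits in the inner mitochondrial membrane. Complexes I and II pass electrons from NADH and succinate to ubiquinone, complex III passes them on to cytochrome c, complex IV (cytochrome c oxidase) passes them to oxygen, and complex V (ATP synthase) makes ATP from the proton gradient that the others build. Most subunits are encoded in the nucleus, and these are the ones measured here. Skeletal and cardiac muscle replace some ubiquitous subunits of complex IV with muscle isoforms: Cox6a2 takes the place of Cox6a1, Cox7a1 that of Cox7a2, and in rodents Cox8b that of Cox8a.

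All values are logarithms relative to each probe's own level over the arrays, taken as log2 because the base is not stated. They show differences between arrays and carry no absolute level, so genes were not ranked by abundance and the presence of Myod1, Myf5 or other myoblast genes could not be checked. The probe for Ehmt2 itself read -0.95 and -0.31 in siG9a at day 1 and 0.77 and 0.66 in control at day 1, and -0.82 and -0.69 in siG9a at day 0 against 1.23 and 0.59 in control at day 0. Every siG9a array was below every control array. The Ehmt2 difference, siG9a minus control over both days, was -1.50 ± 0.19 (standard error, SE, from limma, n = 4 arrays each) and did not pass adjustment over all 31442 features (the named genes and the unnamed probes). Array medians lay between -0.15 and 0.12, below 0 in replicate 1 and above 0 in replicate 2 of each group. Means over the 6 genes fixed as differentiating muscle markers (Myog, Myh3, Ckm, Acta1, Tnnt3 and Mymk) were 0.71 and -0.34 in siG9a at day 1, 0.64 and -0.54 in control at day 1, -1.51 and -4.71 in siG9a at day 0, and -2.63 and -4.96 in control at day 0, replicate 1 before replicate 2.

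**Figure D1:**
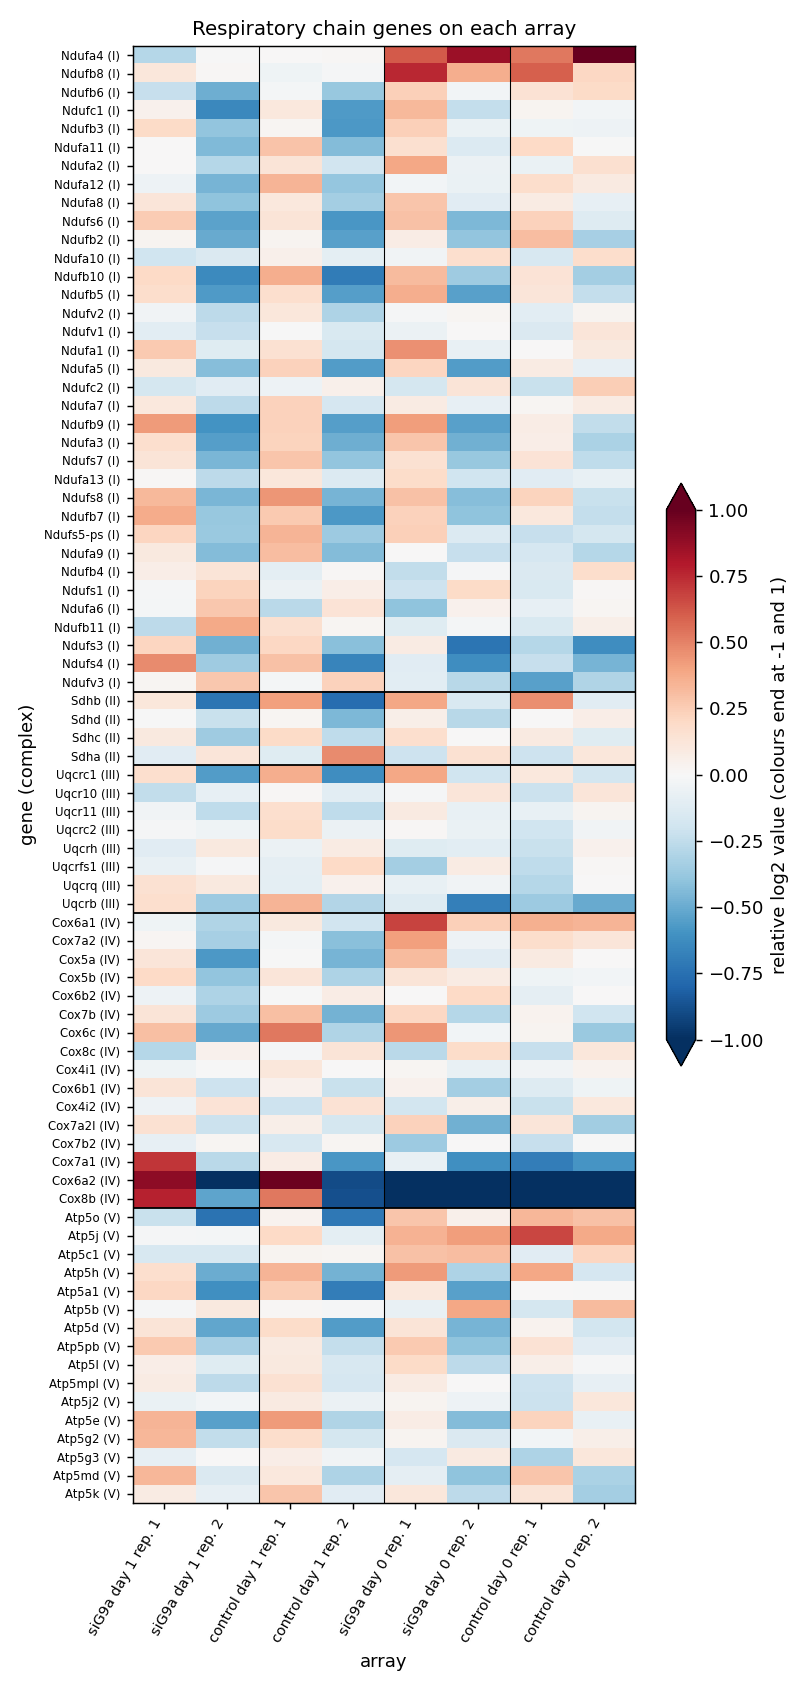
Relative log2 value of each of the 79 respiratory chain genes (rows, grouped by complex and ordered by day 1 minus day 0 within it) on each of the 8 arrays (columns); the colours end at -1 and 1. Cox6a2 and Cox8b are the 2 rows that are dark blue on all 4 day 0 arrays, and many rows are bluer in replicate 2 than in replicate 1 of the same group.

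The 5 genes on which the account of muscle isoforms turns and for which RefSeq gave a promoter (build GRCm38.p6) are shown here by the 250 bases before their start sites, on the strand of the gene. Capitals mark the E-box CANNTG, bound by MyoD-family factors among others, the site of the mitochondrial regulator NRF1 (GCGCA, any base, GCGC) and the site CCGGAAG of ETS-family factors, searched on both strands. The first is Cox8b at chr7:140900447-140900696 on the minus strand, the muscle isoform with the largest day difference.
Cox8b: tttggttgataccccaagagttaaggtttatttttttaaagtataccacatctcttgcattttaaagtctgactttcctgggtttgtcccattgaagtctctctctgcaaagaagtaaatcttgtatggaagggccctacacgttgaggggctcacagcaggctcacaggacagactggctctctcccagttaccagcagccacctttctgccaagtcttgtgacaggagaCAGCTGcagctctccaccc
The next is Cox7a1 at chr7:30183921-30184170 on the plus strand, the other muscle isoform with a promoter in the table.
Cox7a1: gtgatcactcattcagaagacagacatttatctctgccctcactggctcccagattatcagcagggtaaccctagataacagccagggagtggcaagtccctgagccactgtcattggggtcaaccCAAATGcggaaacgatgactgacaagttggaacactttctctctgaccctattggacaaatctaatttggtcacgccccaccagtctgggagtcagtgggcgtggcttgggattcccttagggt
The ubiquitous forms follow, Cox6a1 at chr5:115348959-115349208 and Cox7a2 at chr9:79759854-79760103, both on the minus strand.
Cox6a1: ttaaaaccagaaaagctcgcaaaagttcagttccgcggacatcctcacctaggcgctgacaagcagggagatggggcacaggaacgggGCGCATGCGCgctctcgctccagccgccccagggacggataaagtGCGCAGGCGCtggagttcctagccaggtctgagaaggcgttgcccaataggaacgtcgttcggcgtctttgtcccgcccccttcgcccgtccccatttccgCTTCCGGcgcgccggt
Cox7a2: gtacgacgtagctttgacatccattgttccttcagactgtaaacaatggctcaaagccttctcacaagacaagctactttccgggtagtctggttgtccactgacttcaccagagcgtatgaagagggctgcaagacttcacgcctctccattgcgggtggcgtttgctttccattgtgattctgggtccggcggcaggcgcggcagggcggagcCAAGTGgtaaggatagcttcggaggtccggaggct
Last stands Ndufa4 at chr6:11907451-11907700 on the minus strand, the gene that fell at day 1 with and without the replicate number in the model.
Ndufa4: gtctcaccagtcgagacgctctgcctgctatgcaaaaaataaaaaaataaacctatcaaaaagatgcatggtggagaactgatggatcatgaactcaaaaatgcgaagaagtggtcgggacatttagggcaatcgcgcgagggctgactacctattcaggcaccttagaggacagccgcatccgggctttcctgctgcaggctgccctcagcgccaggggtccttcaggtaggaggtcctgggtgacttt
These windows differ in their letters. Cox8b held 1 E-box, CAGCTG, starting at -19 from the start site, Cox7a1 held 1 at -124 and Cox7a2 held 1 at -35. Cox6a1 held no E-box and held NRF1 sites at -162 and -117 and an ETS site at -16, and Ndufa4 held none of these letters. Such matches describe the window and are not evidence of binding.

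The first comparison asked how the chain differed between day 1 and day 0, over both siRNAs. Cox8b rose and Ndufa4 fell, and no other member passed the test of the group means, limma with Benjamini-Hochberg adjustment over all features. The call of 1 higher and 1 lower member stands against 1.5% of all features called higher and 2.76% called lower, 4.26% together. With the replicate number as a block, 4 members rose and 8 fell, 12 of 79 in all, against 6.55% and 8.64% of all features, or 15.2% together. Both shares of members are near those of all features. The median day difference of the 79 genes was -0.05 and that of all features 0.05, with 31 members higher and 48 lower at day 1.

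Cox8b, the muscle form of subunit VIII of cytochrome c oxidase, read 0.77 and -0.53 in siG9a and 0.53 and -0.88 in control at day 1, against -2.01 and -4.48 in siG9a and -3.41 and -4.39 in control at day 0. All 4 day 1 arrays lay above all 4 day 0 arrays. Its day difference was 3.54 ± 0.57 (SE, n = 4 arrays each), 11.7-fold if the base is 2, with a limma adjusted p of 0.0101. After centring of the arrays on their medians the limma adjusted p was 0.0566, with robust moderation it was 0.111, and after quantile normalization the difference was 2.37 with a limma adjusted p of 0.088. Within replicate the 4 differences were 2.78 and 3.95 in siG9a and 3.94 and 3.51 in control.

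Cox6a2, the muscle form of subunit VIa, gave 0.89 and -1.01 in siG9a and 0.98 and -0.89 in control at day 1, against -1.74 and -4.39 in siG9a and -2.09 and -4.25 in control at day 0. Its day 1 arrays were also all above its day 0 arrays, and replicate 2 was below replicate 1 in every group. The difference of 3.11 ± 0.75 (SE) missed the threshold in the fit without the block (limma adjusted p = 0.0582) and passed it with the block (SE 0.12, limma adjusted p = 2.44e-06). After quantile normalization the Cox6a2 difference was 1.92. Within replicate it was 2.64 and 3.38 in siG9a and 3.07 and 3.36 in control.

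Cox7a1, the muscle form of subunit VIIa, read 0.71 and -0.27 in siG9a and 0.08 and -0.59 in control at day 1, against -0.08 and -0.61 in siG9a and -0.69 and -0.59 in control at day 0. These arrays overlapped between days. The Cox7a1 difference was 0.48 and did not pass in either fit, with limma adjusted p of 0.584 without and 0.0661 with the block. It passed in limma on the 4 within-replicate differences (adjusted p = 0.0379), which came from 2 replicates and were entered as 4 separate values. With 1 array left out the Cox7a1 difference ran between 0.23 and 0.72. Within replicate it was 0.79 and 0.35 in siG9a and 0.77 and 0.00223 in control.

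The differentiating muscle markers moved in the same direction between days as Cox8b and Cox6a2. All 6 were higher at day 1, with a median difference of 3.57, and 5 were called without and 6 with the block. Of 16 other sarcomere genes, 6 were called higher without and 14 with the block, with a median difference of 3.10. Of the 5 myoblast markers 0 were called without the block and 3 rose with it (Cdh15, Myod1 and Des), and of the 6 fibroblast markers 0 were called without it and 2 rose and 1 fell with it. None of the 4 adipocyte, 4 macrophage and 4 endothelial markers was called in either fit. In bulk RNA, fewer cells of a type and less RNA per cell cannot be told apart, and whether the 2 isoforms moved with the share of differentiating cells was not tested.

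The ubiquitous counterparts had lower means at day 1. Cox6a1 read -0.04 and -0.30 in siG9a and 0.10 and -0.19 in control at day 1, against 0.68 and 0.24 in siG9a and 0.35 and 0.34 in control at day 0. Every day 1 array of Cox6a1 was below every day 0 array. Its difference was -0.51 ± 0.15 (SE), not passed without the block (limma adjusted p = 0.114) and passed with it (0.003 by limma). Cox7a2 read 0.02 and -0.33 in siG9a and -0.02 and -0.42 in control at day 1, against 0.41 and -0.05 in siG9a and 0.17 and 0.12 in control at day 0. Its days overlapped through the second siG9a array of day 0. The Cox7a2 difference of -0.35 ± 0.16 (SE) passed only with the block (blocked SE 0.09, limma adjusted p = 0.0239).

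**Figure D2:**
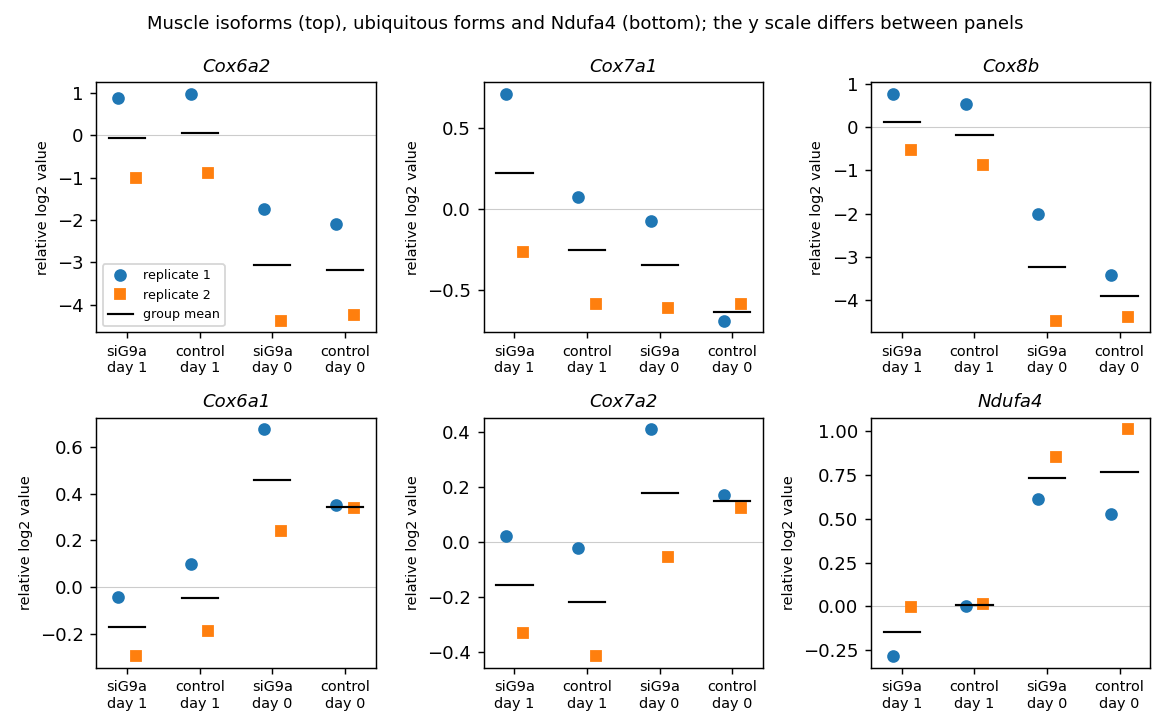
Relative log2 value of 6 genes by group, with 1 point per array (circles replicate 1, squares replicate 2) and a line at the mean of the 2 arrays; the y scale differs between panels. Cox6a2 and Cox8b are higher on all day 1 arrays, Cox7a1 overlaps between days, and Cox6a1 and Ndufa4 are lower on all day 1 arrays.

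Because levels are relative to each probe, isoforms were compared through the shift of their within-array difference. Cox6a2 minus Cox6a1 was 0.10 ± 0.93 at day 1 and -3.52 ± 1.26 at day 0 (SD, n = 4 arrays each), a shift of 3.62 (exact two-sided permutation test, p = 0.0286, adjusted over 4 pairs 0.0571). Cox7a1 minus Cox7a2 was 0.17 ± 0.37 at day 1 and -0.65 ± 0.17 at day 0 (SD, n = 4 each), a shift of 0.83 with the same exact p of 0.0286 and adjusted 0.0571. In both pairs all 4 day 1 arrays were above all 4 day 0 arrays. The smallest p that 4 arrays against 4 can give is 0.0286, and after adjustment over 4 pairs it passes only if at least 3 pairs reach it.

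The paralog pairs that are not muscle isoforms shifted less. Cox4i2, a form known from lung and from low oxygen, minus the ubiquitous Cox4i1 was -0.01 ± 0.22 at day 1 and -0.05 ± 0.18 at day 0 (SD, n = 4 each; exact permutation p = 0.857). Cox6b2, a testis form, minus the ubiquitous Cox6b1 was -0.01 ± 0.21 at day 1 and 0.14 ± 0.27 at day 0 (SD, n = 4 each; exact permutation p = 0.429). Cox4i1 had the smallest SD over the 8 arrays of all 79 genes, 0.0565, followed by the complex V subunit Atp5j2 with 0.103 and the complex III core protein Uqcrc2 with 0.106. At the other end stood Cox8b with 2.10, Cox6a2 with 2.03 and Sdhb with 0.491. Sdhb was read by the largest SD of its 3 probes, and another of them had an SD of 0.0955. The other genes of this ranking had 1 probe each.

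In complex I, 9 of 35 genes were higher and 26 lower at day 1, with a median difference of -0.08. Ndufa4 gave -0.28 and -0.00167 in siG9a and 0.00167 and 0.02 in control at day 1, against 0.61 and 0.85 in siG9a and 0.53 and 1.01 in control at day 0. All day 1 arrays were below all day 0 arrays, by a mean of -0.82 ± 0.15 (SE, n = 4 each), a factor of 1.76 if the base is 2 (limma adjusted p = 0.0179). Without siG9a day 1 replicate 1, control day 0 replicate 2 or siG9a day 0 replicate 2 the limma adjusted p was 0.0606, 0.0658 and 0.0711.

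Among the accessory subunits of the membrane arm, Ndufb8 read 0.11 and 0.01 in siG9a and -0.04 and -0.01 in control at day 1, against 0.76 and 0.36 in siG9a and 0.60 and 0.20 in control at day 0. Its days did not overlap. Ndufb8 (-0.46 ± 0.09) and Ndufb6 (-0.42 ± 0.09, SE with the block) fell in the blocked fit. The other probe of Ndufb8 gave -0.18 and that of Ndufb6 gave -0.17. Ndufv3, an accessory subunit of the NADH-oxidising module, was the only member of complex I that rose in the blocked fit. Its difference was 0.43 (blocked SE 0.09, limma adjusted p = 0.0108), and its other probes gave 0.14 and 0.39. It read 0.02 and 0.27 in siG9a and -0.02 and 0.23 in control at day 1, against -0.11 and -0.28 in siG9a and -0.55 and -0.30 in control at day 0. Its day 1 arrays were all above its day 0 arrays. Of the 6 core subunits of complex I with a probe none was called in either fit, and their day differences ran between -0.11 and 0.27.

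Complex II, the succinate dehydrogenase, had 1 gene higher and 3 lower. Sdhb, its iron-sulfur subunit, read 0.12 and -0.73 in siG9a and 0.41 and -0.76 in control at day 1, against 0.39 and -0.15 in siG9a and 0.47 and -0.12 in control at day 0. The days overlapped across replicates while each replicate was lower at day 1. Its difference of -0.39 passed only with the block (limma adjusted p = 0.0431) and ran between -0.68 and -0.09 with 1 array left out, and the other probes of Sdhb gave -0.32 and 0.05.

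In complex III the median day difference was 0.10, with 5 genes higher and 3 lower. Uqcrb, a small subunit known as the ubiquinone-binding protein, read 0.17 and -0.37 in siG9a and 0.34 and -0.29 in control at day 1, against -0.13 and -0.68 in siG9a and -0.36 and -0.50 in control at day 0. Each replicate was higher at day 1, with overlap across replicates, and the difference of 0.38 passed only with the block (limma adjusted p = 0.0231). The other 7 members of complex III were not called.

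Complex IV had a median day difference of 0.03 over its 16 genes and of -0.01 over the 13 left without Cox6a2, Cox7a1 and Cox8b. Those 13 genes had differences between -0.51 (Cox6a1) and 0.10.

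In complex V, 7 of 16 genes were higher and 9 lower, with a median of -0.02. Atp5o, the oligomycin sensitivity protein that ties the catalytic head to the peripheral stalk, read -0.23 and -0.74 in siG9a and 0.03 and -0.72 in control at day 1, against 0.28 and 0.05 in siG9a and 0.33 and 0.30 in control at day 0. The day 1 arrays were all below the day 0 arrays. The Atp5o difference of -0.65 ± 0.19 (SE) passed only with the block (blocked SE 0.11, limma adjusted p = 0.00401). The other probes of Atp5o gave smaller falls, -0.18 and -0.06. Atp5j, coupling factor 6 of the peripheral stalk, fell in the blocked fit by 0.44 on the log2 scale (limma adjusted p = 0.00802), but its other probes gave -0.04 and 0.13. The 5 subunits of the catalytic head had differences between -0.24 and 0.03, and none was called.

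**Figure D3:**
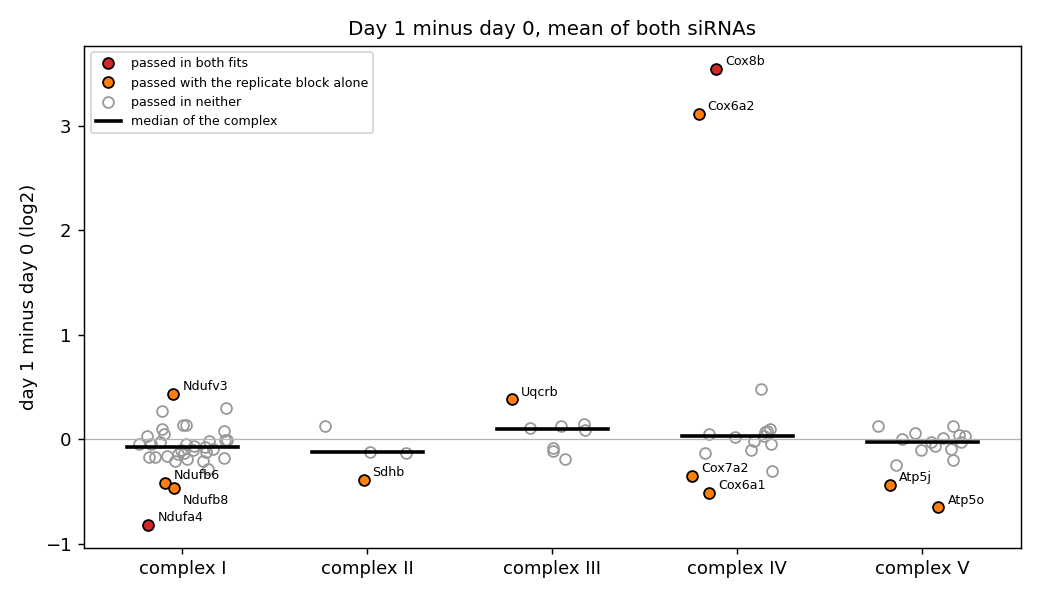
Day 1 minus day 0 (log2, mean of both siRNAs) for each gene by complex; red points passed in both fits, orange points with the replicate block alone and open points in neither, and lines mark the median of each complex. Medians lie between -0.12 and 0.10, while Cox8b and Cox6a2 stand at 3.54 and 3.11.

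For 11 of the 30 genes with more than 1 probe, another probe differed in sign from the one used in the day comparison. Among these 11 genes the gaps were widest for Atp5j, Sdhb, Ndufb2 (-0.16 against 0.13) and Ndufc2 (-0.07 against 0.13). Without regard to fits, 3 members had all day 1 arrays above all day 0 arrays (Cox6a2, Cox8b and Ndufv3; 3.8%, against 4.98% of all features). In the other direction there were 5 (Ndufa4, Ndufb8, Cox6a1, Atp5j and Atp5o; 6.33%, against 5.84% of all features).

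The day difference was next read within each siRNA. In siG9a, 0 members were called without the block, against 0.906% of features, and 8 members had an unadjusted p under 0.05, against 2458 features (7.82%). With the block Cox8b (3.36) and Cox6a2 (3.01) rose and Ndufa4 (-0.88), Ndufb6, Ndufb8, Cox6a1 (-0.63), Atp5c1 (-0.46) and Atp5o (-0.65) fell, against 3.42% of features higher and 5.56% lower, 8.98% together. In control, 0 members were called without the block, against 1.12% of features, and 6 members had an unadjusted p under 0.05, against 2421 features (7.7%). With the block Cox8b (3.73), Cox6a2 (3.22) and Ndufv3 (0.53) rose and Ndufa4 (-0.76), Atp5j (-0.47) and Atp5o (-0.65) fell, against 3.85% of features higher and 4.97% lower, 8.83% together. Calls made in one siRNA and not the other do not show a difference between them: the test of that difference, the interaction, called 0 members and 0 of 31442 features (0.0%) in either fit. At an unadjusted p under 0.05 the interaction held 0 members and 18 features (0.0572%) without the block, and 3 members and 1382 features (4.4%) with it.

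The members as a set did not keep one direction between the days of the control cells. Both siG9a replicates had medians below 0, at -0.03 and -0.09. In control replicate 1, 63 of 79 genes were higher at day 1, with a median of 0.16, and in control replicate 2, 59 of 79 were lower, with a median of -0.21. The medians of all features were 0.09 in each siG9a replicate and -0.01 and 0.03 in the control replicates. Of the single genes, 11 were higher at day 1 in all 4 replicate pairs (13.9%, against 20.8% of features) and 12 were lower in all 4 (15.2%, against 12.3%).

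The comparison of siG9a with control asked whether G9a knockdown was accompanied by a difference in the chain. In limma no member was called at day 1, at day 0 or over both days, with or without the block, and neither was any of the 31442 features (0.0%). At an unadjusted p under 0.05 the fit without the block held 0 members in each of these 3 comparisons. It also held few features, 54 (0.172%) at day 1, 123 (0.391%) at day 0 and 148 (0.471%) over both days. The blocked fit held 1 member at day 1, 2 at day 0 and 2 over both days, against 1195 features (3.8%) at day 1, 1728 (5.5%) at day 0 and 1540 (4.9%) over both days. In limma on the 4 within-replicate differences over both days, 0 members were called, against 0.382% of features higher and 0.433% lower, and 4 members had an unadjusted p under 0.05, against 2536 features (8.07%). Median differences of the 79 genes were -0.06 at day 1, 0.03 at day 0 and -0.01 over both days, against 0.02, -0.04 and -0.00411 for all features. No member had all siG9a arrays above or below all control arrays, against 0.207% and 0.226% of features.

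Over both days Cox8b and Cox7a1 gave the largest siG9a differences of the 79 genes, and neither passed. For Cox7a1, whose 8 values stand above, the siG9a difference was 0.48 ± 0.35 at day 1, 0.30 ± 0.35 at day 0 and 0.39 ± 0.25 over both (SE). Within replicate it was 0.64 and 0.32 at day 1 and 0.62 and -0.02 at day 0, so 1 of the 4 pairs had no higher siG9a value. For Cox8b the difference was 0.48 ± 0.57 (SE) over both days, made up of 0.24 and 0.35 at day 1 and 1.41 and -0.09 at day 0. Without siG9a day 0 replicate 1 it was -0.14, in a fit without the block that left the replicates unequal between siG9a and control. Cox6a2, in contrast, gave -0.09 and -0.12 at day 1 and 0.34 and -0.13 at day 0. The shift of Cox7a1 minus Cox7a2 with siG9a was 0.34, the means being -0.07 ± 0.58 in siG9a and -0.41 ± 0.45 in control (SD, n = 4 each; exact permutation p = 0.429). This permutation takes no account of day or replicate. Within replicate, Cox7a1 minus Cox7a2 was higher in siG9a in all 4 pairs, by 0.60 and 0.23 at day 1 and 0.38 and 0.15 at day 0. An exact test by sign flips of these 4 differences gave p = 0.125, the smallest it can give. The shift of Cox6a2 minus Cox6a1 with siG9a was 0.00553 (exact permutation p = 0.943). Adjusted over the 4 isoform or paralog pairs, each siG9a shift had an exact permutation p of 0.943. The differentiating muscle markers had a median siG9a difference of 0.37, with 6 of 6 higher and 0 called. Their mean siG9a difference was 0.06 and 0.20 in the day 1 pairs and 1.12 and 0.25 in the day 0 pairs, 0.41 over both days. It was -0.39 without siG9a day 0 replicate 1 and -0.17 without control day 0 replicate 2. Without each of the other arrays in turn it ran between 0.11 and 1.21. These settings were chosen after seeing the data. With 1 array left out the replicates are unequal between siG9a and control, and replicate 2 was the lower one in these markers.

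In the other complexes the siG9a differences were smaller. Ndufa12, an accessory subunit of complex I, was lower in siG9a in all 4 pairs, by a mean of -0.21 ± 0.18 (SE), with pairs of -0.39 and -0.08 at day 1 and -0.20 and -0.16 at day 0. Atp5e, the epsilon subunit of complex V, gave -0.21 ± 0.24 (SE) and was also lower in all 4 pairs. Together with Ndufa11 and Atp5o these were the 4 members (5.06%) lower in every pair, against 8.37% of features, and Ndufb8 and Ndufv3 were the 2 (2.53%) higher in every pair, against 6.64%. The other probe of Ndufb8 gave a siG9a difference of -0.10 over both days, and those of Ndufv3 gave -0.03 and 0.04.

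Some members had siG9a differences of opposite sign on the 2 days. Atp5c1, the gamma subunit of the central stalk, read -0.16 and -0.16 in siG9a and 0.03 and 0.02 in control at day 1, and 0.29 and 0.31 in siG9a and -0.11 and 0.21 in control at day 0. Its siG9a difference was -0.18 ± 0.17 at day 1 and 0.25 ± 0.17 at day 0, with an interaction of -0.44 ± 0.24 (SE). That interaction did not pass in either fit (with the block SE 0.17, limma adjusted p = 0.92). Cox6c gave -0.23 and -0.21 at day 1 and 0.42 and 0.35 at day 0 within replicate, an interaction of -0.60 ± 0.49 (SE) that ran between -1.02 and -0.19 with 1 array left out. Cox6b2 had an interaction of -0.36 ± 0.24 (SE), and neither passed.

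**Figure D4:**
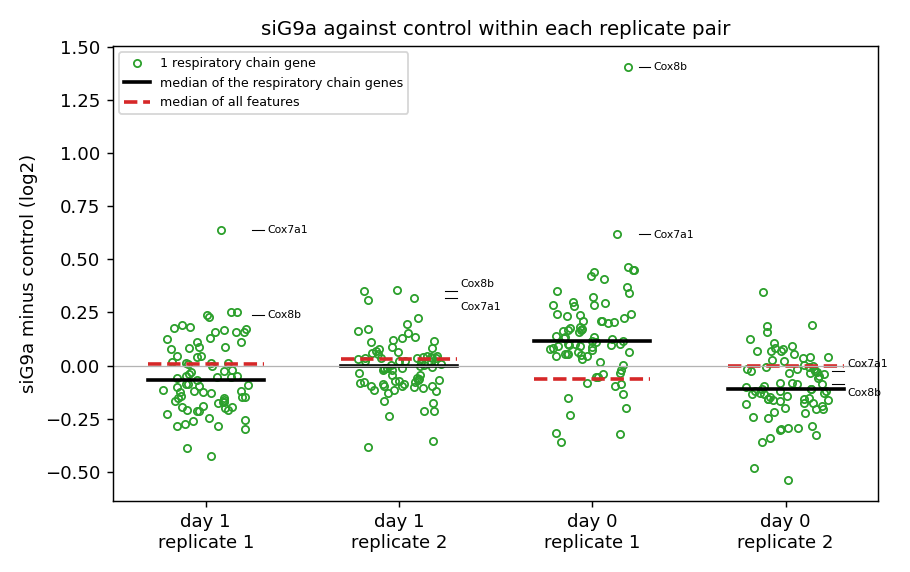
siG9a minus control (log2) within each replicate pair, with 1 point per respiratory chain gene, a solid line at their median and a dashed line at the median of all features. At day 0 the median of the 79 genes is 0.12 in replicate 1 and -0.11 in replicate 2, and Cox8b stands at 1.41 in the day 0 pair of replicate 1.

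The direction of the whole set depended on the pair. At day 1 the median siG9a difference was -0.07 in replicate 1 and 0.000181 in replicate 2. At day 0, 64 of 79 genes were higher in siG9a in replicate 1 (median 0.12) and 59 of 79 were lower in replicate 2 (median -0.11). The medians of all features in these day 0 pairs were -0.06 and -0.00413.

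Replicates of the same group also differed in these genes. The median of replicate 2 minus replicate 1 over the 79 genes was -0.37 in siG9a and -0.40 in control at day 1, and -0.34 in siG9a and -0.01 in control at day 0. All features had medians of 0.19, 0.16, 0.20 and 0.13 in the same groups, the opposite sign. Of the 79 genes, 39 were lower in replicate 2 in all 4 groups (49.4%, against 12.9% of features) and 11 were higher in all 4 (13.9%, against 51.7%). The 11 were Cox4i2, Cox7b2 and Cox8c, isoforms known from lung or testis, and Ndufa4, Ndufa6, Ndufb4, Ndufc2, Ndufs1, Sdha, Uqcrfs1 and Uqcrh.

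By complex, the median replicate difference in control at day 1 was -0.58 in complex I, -0.46 in complex II, -0.18 in complex III and -0.34 in both complex IV and complex V. In control at day 0 it was -0.06 in complex I, -0.08 in complex II, 0.21 in complex III, 0.0023 in complex IV and -0.05 in complex V. Other genes also differed between the replicates, not always most in the same groups as the chain. The differentiating muscle markers were lower in replicate 2, by a median of -0.99 in siG9a and -1.10 in control at day 1 and of -3.20 in siG9a and -2.45 in control at day 0. All 6 fibroblast markers (Col1a1, Col3a1, Pdgfra, Thy1, Lum and Dpt) were higher in replicate 2 in every group, with means of 0.95 and 0.91 in the day 1 and 0.61 and 0.52 in the day 0 arrays of replicate 2, siG9a before control, against -0.68, -0.57, -0.81 and -0.82 in replicate 1. Assembly factors of the chain, which the name rule did not take, were lower in replicate 2. Their medians were -0.35 in siG9a and -0.47 in control at day 1, and -0.32 in siG9a and -0.07 in control at day 0. Other lists also had medians below 0 in every group. They ran between -0.39 and -0.05 for fatty acid oxidation, -0.26 and -0.15 for the tricarboxylic acid cycle and -0.89 and -0.60 for the myoblast markers. In the same order, 9 to 13 of 16 genes, 10 to 14 of 17 and 3 of 5 were lower in replicate 2. The myoblast marker Myf5 was higher in replicate 2 in every group. The adipocyte, macrophage and endothelial markers had medians above 0 in every group, with at most 1 of 4 lower in replicate 2. These medians ran between 0.27 and 0.40 for adipocyte, 0.10 and 0.31 for macrophage and 0.30 and 0.37 for endothelial markers. The glycolysis genes also had medians above 0, between 0.07 and 0.48, with 4 to 6 of 14 lower. The part of any of these cell types in this replicate difference was not tested.

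**Figure D5:**
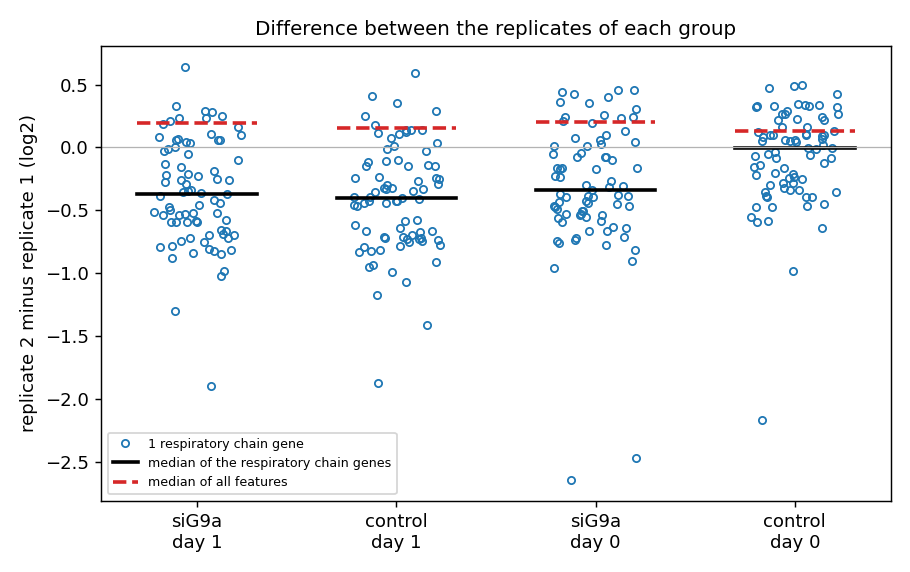
Replicate 2 minus replicate 1 (log2) in each group, with 1 point per respiratory chain gene, a solid line at their median and a dashed line at the median of all features. The medians of the 79 genes are -0.37, -0.40, -0.34 and -0.01 and lie below those of all features in all 4 groups.

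Genes around the chain gave a mixed picture between days. Of 4 further chain proteins outside the name rule, Cycs (cytochrome c, -0.82) and Atpif1 (the ATP synthase inhibitor, -0.61) fell in the blocked fit, and none was called without the block. Of 43 assembly factors 0 were called without the block. With it 2 rose, among them Uqcc1 of complex III (0.72), and 7 fell, among them Ndufaf2 (-0.62) and Acad9 (-0.44) of complex I and Coa6 (-0.57) of complex IV. Of 28 regulators of mitochondrial biogenesis 4 rose and 4 fell with the block and 0 without. Mef2c, a muscle transcription factor, had 1.98 and the energy sensor subunit Prkaa2 had 0.69, against -0.38 for Nrf1 and -0.47 for Ppard, all called in the blocked fit.

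Genes of other routes of energy supply were also called between days. Ckm and Ckb, creatine kinases that buffer ATP, rose by 4.17 (limma adjusted p = 0.0241) and 2.41 (0.013), and Pgam2, the muscle form of phosphoglycerate mutase, rose by 3.42 (0.0155). Pkm, the pyruvate kinase gene, fell by 0.81 on the log2 scale (limma adjusted p = 0.00626), and Idh2, mitochondrial isocitrate dehydrogenase, fell by 0.56 (0.0455). In all, glycolysis had 1 of 14 genes higher and 1 lower without the block and 4 and 4 with it. The tricarboxylic acid cycle had 0 of 17 higher and 1 lower without the block and 1 and 6 with it, and fatty acid oxidation had 0 of 16 called without and 3 lower with it. Energy transfer genes had 2 of 15 higher without the block, and 5 higher and 2 lower with it. These counts stand against the same shares of all features as the day counts above. In the siG9a comparison over both days 0 genes of any of these lists were called.

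The promoters of the members shared some letters that the name rule did not use. A RefSeq promoter was matched for 63 of the 79 genes, Cox6a2 not being among them. The NRF1 letters (GCGCA, any base, GCGC) stood within the 250 bases in 11 of the 63 genes (17.5%), against 3.74% of all 32851 promoters. The ETS letters CCGGAAG stood in 12 (19%), against 6.91%. An E-box CANNTG stood in 38 of 63 (60.3%, against 66.2%), its form CAGCTG, which is counted in both, in 5 (7.94%, against 13%), and the MEF2 site in 0 (against 2.92%). The estrogen-related receptor letters TCAAGGTCA stood in 1 (1.59%, against 0.387%), and the TATA box letters TATAAA in 7 (11.1%, against 12.4%). All were counted on both strands, and the shares describe letters in these windows and no use of a site. The member shares count genes and the shares they stand against count promoters, so they are not the same measure.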

How the data were processed

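RNA of 8 myoblast samples was hybridised to 8 arrays. The deposited values, taken as log2 relative to each probe's own level, were used as they stand. How the authors corrected background, normalized and filtered is not given in the sources used here, and the base of the logarithm is not stated. A deposited table of unnormalized signals was left out, because the names of its 16 per-sample columns match no sample. Of 45281 probes, 28620 were named through the Entrez ID, 2637 through the accession and 4527 by the platform symbol, and 9497 had no symbol.

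The probe with the largest SD per gene and all unnamed probes, 31442 features, were fitted in limma 3.58.1 (R 4.3.3), 1 model of 4 group means with empirical Bayes moderation (4 residual and 4.59 prior degrees of freedom). Calls were made at a p under 0.05 after Benjamini-Hochberg adjustment over all features. The replicate numbers, from the sample titles, paired the arrays: replicate deviations correlated across features with r between 0.613 and 0.865 over the 6 pairs of groups (0.777 to 0.904 over the 79 genes). Values with the replicate number as a block (3 residual and 5.87 prior degrees of freedom) are therefore given where they change a call. Replicates are labelled biological duplicates, and p-values measure the spread between these arrays. The 4 within-replicate differences came from 2 replicates and were entered as 4 separate values. Precision is limited by the 2 arrays a group, and signal over background is unknown. Isoform shifts were tested by exact two-sided permutation (scipy 1.17.1). The fits were also run on simulated data with changes added to siG9a at day 0. Only the siG9a comparison at day 0 was read there, so the other comparisons were not tested in this way.

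The members, gene lists and tests were chosen with earlier results of these data known. Genes were named by rule: isoform pairs, Ndufa4, called members (or the smallest p) of each complex and comparison, up to 4 of each further list and the SD extremes. Further members are named where a count of whole groups is given. Alternatives were centring, quantile normalization, the mean over probes, the features above the median SD, robust moderation, the block, within-replicate differences and each array left out.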

Additional observations from a re-analysis of the deposited data

Results flagged for a closer look

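Medians of 3 complexes had opposite signs between days or siRNAs in both replicate pairs, and these differences between medians were not tested. For complex II, the median siG9a difference averaged -0.0442 over the day 1 pairs and 0.0145 over the day 0 pairs. For complex III, the median day difference averaged -0.021 in siG9a and 0.121 in control. For complex IV it averaged -0.0308 in siG9a and 0.0811 in control. The sign depended on how the median was taken. Over the gene differences of both replicates together, the complex II median was -0.11 at day 1 and -0.02 at day 0. Taken in this way, the complex III median was above 0 in both siRNAs, and that of complex IV kept opposite signs. Complex II holds 4 genes, complex III 8 and complex IV 16.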

How the results depend on the processing

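The count of members called between days depended on the fit and the other counts did not. Over both siRNAs it was 2 without the block, 12 with the replicate block, 13 in limma on within-replicate differences, 1 after centring, 1 after quantile normalization, 1 with robust moderation and 11 with centring and the block together, a setting chosen after seeing the data. Leaving out 1 array at a time gave 1 to 3. In siG9a it was 0, with 8 under the block, 9 with centring and the block and 1 among the features above the median SD. In control it was 0, with 6, 5 and 1 in the same settings and 0 to 1 when 1 array was left out. The larger counts under the block come with smaller SE in that fit. The counts of 0 for siG9a against control and for the interaction stayed at 0 in all settings run. In the fits with and without the block these comparisons called 0 of all 31442 features, and Ehmt2 itself was not called. The counts of 0 therefore do not show that the members were unaffected.

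Leaving out 1 array was run for the genes named by rule in each comparison. Among their siG9a differences, those of 3 genes crossed 0: Cox7a1 at day 1 (-0.0116 to 0.97), Atp5e (-0.43 to 0.0116) and Cox8b (-0.14 to 1.10) over both days. These fits had no replicate block, so leaving out 1 array left the replicates unequal between the groups compared. Within replicate, Cox7a1 at day 1 was higher in siG9a in both pairs (0.64 and 0.32). Atp5e was lower in siG9a in all 4 pairs, and Cox8b gave 0.24, 0.35, 1.41 and -0.09. The day differences of Cox4i2 (-0.0212 to 0.15) and Cox6b1 (-0.0423 to 0.15) crossed 0 as well, Cox6b1 also with the mean over probes (-0.0157) and Cox4i1 with centring (-0.0196), with or without the block. Among isoform shifts, Cox4i2 minus Cox4i1 between days ran from -0.0173 to 0.14, Cox6a2 minus Cox6a1 with siG9a from -0.95 to 0.98 and was -0.0195 with the mean over probes, and Cox6b2 minus Cox6b1 with siG9a from -0.19 to 0.0469. Within replicate, the siG9a differences of Cox6a2 minus Cox6a1 were 0.05 and -0.01 at day 1 and 0.02 and -0.03 at day 0. No difference or shift named here as crossing 0 was called, and the causes were not tested. With the mean over probes the day differences of Atp5j and Sdhb were -0.11 and -0.22. In an exact permutation test by sign flips of the 4 within-replicate differences (replicate block), no isoform shift could go below p = 0.125. Background corrections and detection filters were not run, since the signal columns could not be matched to samples.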
